A study of Mus musculus with 2 samples.

Results

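The potassium channel genes of the mouse were read for open chromatin in MN1, an immortalized cell line, by DNase-seq, which maps the stretches of DNA where the enzyme DNase I cuts most readily. Members were the protein-coding genes of GENCODE release M21 whose symbol starts with Kcn followed by letters and a number, which gave 93 of 21911 genes in 20 subfamilies. The rule uses names only and no measured value. Both libraries came from biological replicates of the MN1 line of strain B6NCrl, and both had been treated with 10 nM methyltrienolone, a synthetic androgen. They form 1 group of 2 replicates, with no untreated library analysed here, so no value below is a response to the androgen and no test between conditions could be made. The labels name no tissue, sex or age, and describe MN1 only as an immortalized cell line.

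Potassium channels let potassium ions pass through the cell membrane along their gradient, which sets the resting potential and ends action potentials. A channel is built of pore-forming alpha subunits, which open to voltage, to internal calcium or sodium, or at rest, and many carry auxiliary subunits that change their gating or traffic. Neurons use many members side by side, and the mix differs between kinds of neuron. Open chromatin at a promoter marks a site where proteins can reach the DNA, but it does not measure RNA or current.

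The neuronal markers Tubb3, Nefh, Nefm, Nefl, Syt1, Snap25, Stmn2 and Gap43 all had a promoter region found in both replicates (8 of 8), with scores from 88 to 149 in replicate 1. Of 6 motor neuron markers 4 had one (Isl1, Chat, Slc18a3 and Lhx3), and Mnx1 and Slc5a7 had no peak. None of 4 skeletal muscle markers and 1 of 3 astrocyte markers (Gfap) had a promoter region found in both replicates. Such a region lay at 59.5% of all protein-coding genes, and the motor neuron share of 66.7% was near it. Lhx3 scored only 58 and 36. The peak lists held 189648 peaks in replicate 1 and 170745 in replicate 2 on the main chromosomes. The depth behind the lists is unknown, as reads were not analysed here.

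The promoters of 4 members are shown first as open examples of different classes: the highest auxiliary gene (Kcnab2), the highest calcium-activated gene (Kcnn3), a CpG-rich voltage-gated gene (Kcnc1) and the highest inward rectifier (Kcnj6). Each is a RefSeq window from 250 bases before to 50 bases after a start, on build GRCm38 (mm10), written 5′ to 3′ on the gene's strand. Capitals mark matches to the SP/KLF box GGGCGG on either strand, and no AP-1 or CRE match lay in these windows. The windows are chr4:152477500-152477799 on the minus strand for Kcnab2, chr3:89519914-89520213 on the plus strand for Kcnn3, chr7:46396218-46396517 on the plus strand for Kcnc1 and chr16:94997647-94997946 on the minus strand for Kcnj6.
Kcnab2: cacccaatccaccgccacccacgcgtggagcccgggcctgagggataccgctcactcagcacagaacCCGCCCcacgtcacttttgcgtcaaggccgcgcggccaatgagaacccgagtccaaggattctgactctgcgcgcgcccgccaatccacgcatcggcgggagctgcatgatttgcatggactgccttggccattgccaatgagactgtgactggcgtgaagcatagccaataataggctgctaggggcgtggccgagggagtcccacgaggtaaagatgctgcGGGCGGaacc
Kcnn3: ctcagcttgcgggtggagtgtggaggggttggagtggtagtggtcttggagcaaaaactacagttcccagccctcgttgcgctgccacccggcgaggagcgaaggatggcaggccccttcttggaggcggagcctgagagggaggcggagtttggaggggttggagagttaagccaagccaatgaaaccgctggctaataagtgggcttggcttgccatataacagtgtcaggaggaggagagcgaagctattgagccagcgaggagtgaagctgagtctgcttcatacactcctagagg
Kcnc1: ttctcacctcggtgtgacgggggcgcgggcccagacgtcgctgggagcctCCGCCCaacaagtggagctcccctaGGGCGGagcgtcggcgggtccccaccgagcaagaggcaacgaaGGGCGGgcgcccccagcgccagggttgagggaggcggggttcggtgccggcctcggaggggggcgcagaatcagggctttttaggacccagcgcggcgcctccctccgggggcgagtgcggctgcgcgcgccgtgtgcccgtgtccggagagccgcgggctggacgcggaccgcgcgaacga
Kcnj6: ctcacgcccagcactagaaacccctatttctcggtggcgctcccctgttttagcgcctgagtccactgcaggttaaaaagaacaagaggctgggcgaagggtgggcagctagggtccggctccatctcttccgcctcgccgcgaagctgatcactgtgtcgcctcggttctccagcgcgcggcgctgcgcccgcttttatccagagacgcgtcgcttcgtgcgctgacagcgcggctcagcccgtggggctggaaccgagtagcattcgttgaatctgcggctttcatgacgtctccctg
Kcnc1 held 3 SP/KLF boxes and Kcnab2 held 2, while Kcnn3 and Kcnj6 held none, and all of these windows were overlapped by a region found in both replicates. RefSeq windows were at hand for 68 of the 93 members, 93 windows in all. An SP/KLF box was present in 48.4% of them, in 61.9% of the 21 overlapped by a shared region and in 44.4% of the 72 others, against 35.7% of 32851 windows of all genes. A CTCF match with up to 2 mismatches lay in 9.68% of the members' windows, against 8.95% of all windows.

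A promoter was called open where peaks of both replicates overlapped by at least 1 bp and the merged region came within 1 kb of a transcription start site (TSS) annotated for the gene. By this measure 38 of 93 potassium channel genes were open, 40.9% (95% Wilson interval 31.4% to 51.0%, which covers counting error only), against 59.5% of all protein-coding genes. A peak lay at the promoter of 43 members in replicate 1 and 40 in replicate 2, 41.5 ± 2.12 (SD, n = 2). A shared region lay within 1 kb of the gene's 5′ end itself in 34 of the 93, against 55.0% of all genes. A promoter peak in 1 replicate only was found at 5 members, against 3.38% of all genes, and 1 more (Kcnk12) had peaks in both replicates at different places. The remaining 49 had no promoter peak in either replicate. Hotspots, the wider enriched regions of each library, lay at the promoter of 40 members in both replicates, against 59.9% of all genes, and these were the 38 with Kcng3 and Kcnk12.

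The strength of these promoters was read from the authors' score of each peak, a whole number from 1 to 150 whose meaning is not stated and which serves only to rank peaks within a list. A gene took its highest promoter peak in each replicate, that score was ranked among the 13037 open genes, and the smaller of both percentiles was used. The median over the 38 open members was 14.3, with a range from 0.349 to 83.0, against a median of 44.6 over all open genes. Only 4 members, Kcnab2 and Kcnn3 among them, lay above 50, and 15 members scored at least 100 in both replicates. The highest peaks of both replicates overlapped in 31 members and lay at different places in 7, among them Kcnc4, Kcnh2, Kcnj4, Kcnk3, Kcnn1 and Kcnq1. In such bulk libraries a low score cannot tell fewer open cells from less cutting per cell.

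**Figure D1:**
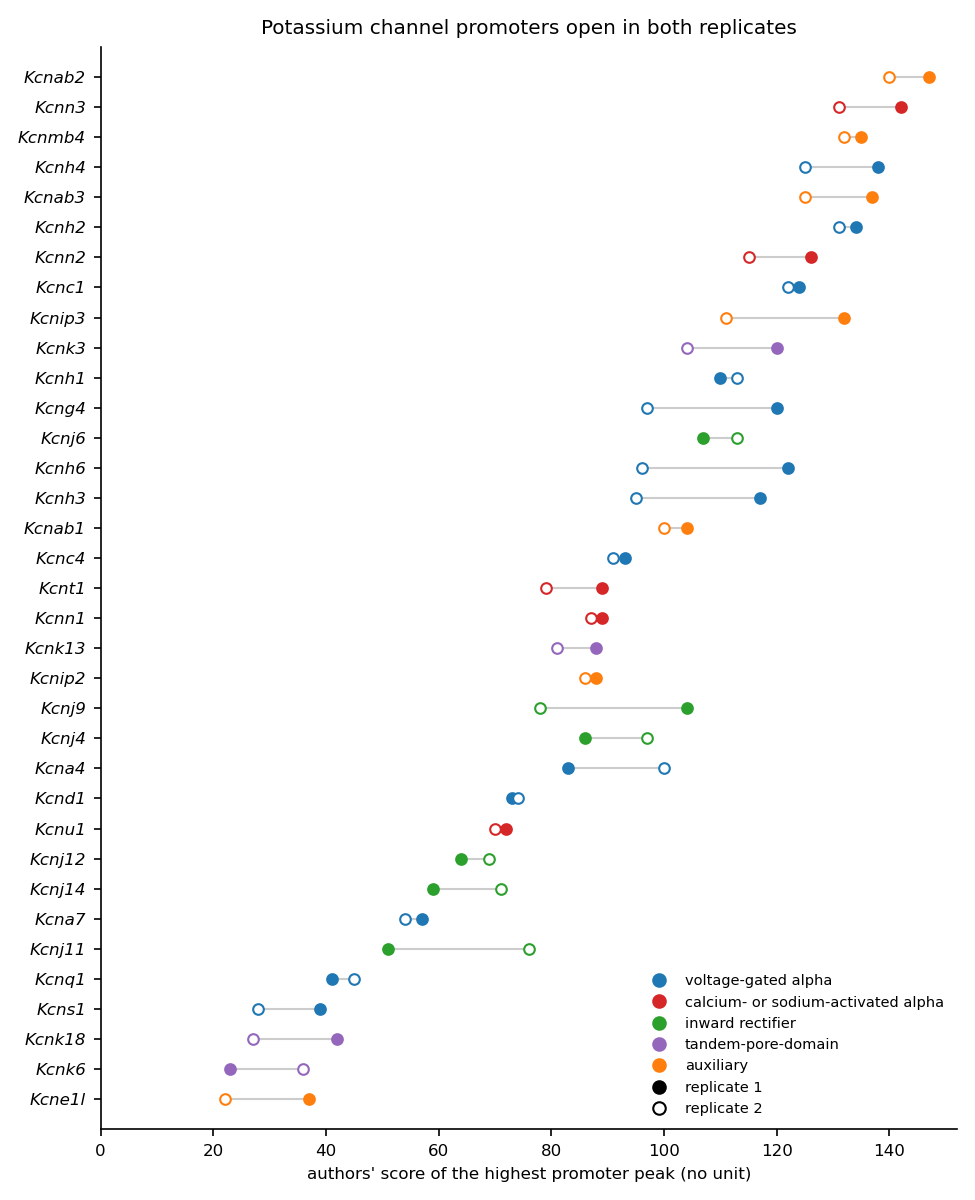
Authors' score of the highest promoter peak (horizontal axis, no unit) for each open potassium channel gene reported here, with filled points for replicate 1, open points for replicate 2 and colours for the classes. Genes are ordered by their lower percentile, and the replicates lie close together for Kcnab2 (147 and 140) and far apart for Kcnh6 (122 and 96).

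The 5 classes were set side by side by their share of open promoters. Open were 16 of 40 voltage-gated alpha subunit genes (Wilson interval 26.3% to 55.4%), 5 of 8 calcium- or sodium-activated ones (62.5%, 30.6% to 86.3%), 6 of 15 inward rectifiers (19.8% to 64.3%), 4 of 14 tandem-pore-domain leak channels (28.6%, 11.7% to 54.6%) and 7 of 16 auxiliary subunits (43.8%, 23.1% to 66.8%). The share over all protein-coding genes was 59.5%, near the 62.5% of the calcium- or sodium-activated genes. Of those 5 open genes, 2 were open at internal starts only. All 5 intervals overlap, which is not a test, and a difference between the classes was not tested. Over all open genes the median lower percentile was 44.6. The median lower percentile of the open members was 27.9 for the auxiliary subunits, 18.4 for the voltage-gated genes, 12.6 for the calcium- or sodium-activated genes, 9.41 for the inward rectifiers and 6.58 for the leak channels.

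**Figure D2:**
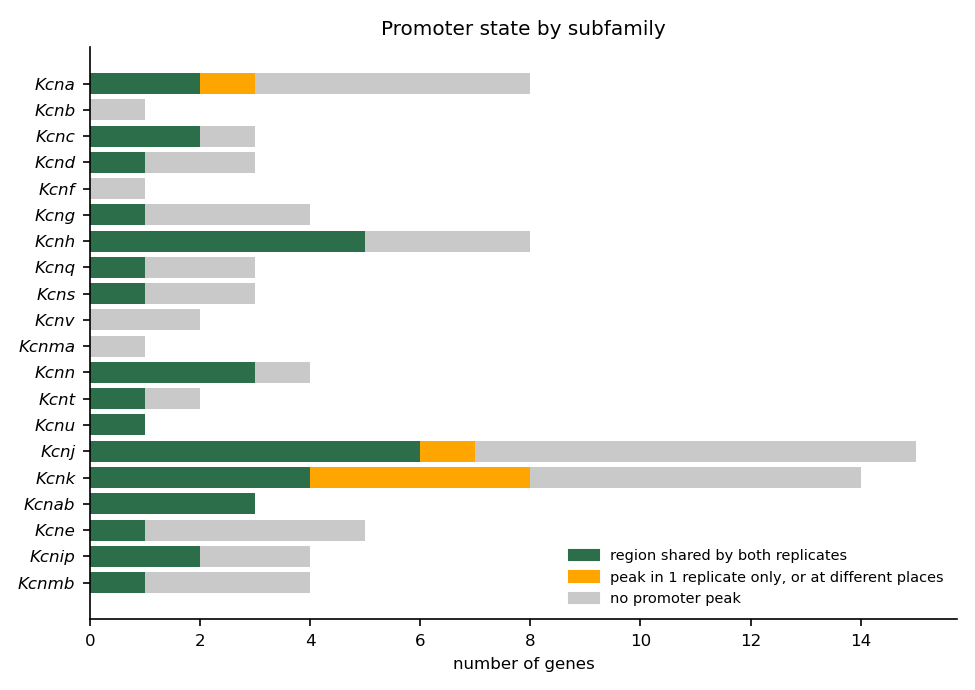
Number of potassium channel genes (horizontal axis) in each subfamily, over the genes reported here, split into those with a promoter region shared by both replicates (green), those with a peak in 1 replicate only or at different places (orange) and those without a promoter peak (grey). All 3 Kcnab genes and 5 of 8 Kcnh genes were open, while Kcnf, Kcnv and Kcnma had none.

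Among the voltage-gated alpha subunits, the Kcnc genes encode fast channels that allow rapid firing. Kcnc1 scored 124 and 122, the closest agreement among the 10 highest members. Kcnc4 scored 93 and 91, and Kcnc2 had no promoter peak and no distal region. The Kcnc1 region lay 76 bp upstream of its start, inside the window printed above.

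Kcnb2, a delayed rectifier gene of 436497 bp, had no promoter peak and no distal region in its body or within 50 kb. Of the silent subunits, which do not form channels alone but join Kcnb subunits, Kcng4 scored 120 and 97 and Kcns1 39 and 28, while Kcnf1, Kcng1, Kcng2, Kcng3, Kcns2, Kcns3, Kcnv1 and Kcnv2 had no promoter peak. Kcng3 still had a promoter hotspot of 834 bp in replicate 1 and 1194 bp in replicate 2, but its peaks lay just outside the window, at -1175 bp from its start (upstream) with scores of 111 and 104 and at -1475 bp with scores of 101 and 84.

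The Kcnh genes encode the ether-a-go-go channels, among them Kcnh2, the channel of cardiac repolarization. Open were Kcnh1, Kcnh2, Kcnh3, Kcnh4 and Kcnh6, and Kcnh5, Kcnh7 and Kcnh8 had no promoter peak. Kcnh4 scored 138 and 125 at 68 bp upstream of its start. Kcnh2 had 6 shared promoter regions in 2 groups: its highest region at the 5′ end scored 133 and 131 (chr5:24351696-24351865), and another, 21894 bp downstream at an internal start, scored 134 and 122. Both starts were open in both libraries. Kcnh1 scored 110 and 113, and Kcnh3 117 and 95. Kcnh6 was open only at an internal start, 5636 bp downstream of its 5′ end, with 122 and 96, and its region lay beside the start of a transcript that is not protein-coding.

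Of the Kcna genes, the shaker relatives that shape firing along axons, only Kcna4 (83 and 100) and Kcna7 (57 and 54) were open. Kcna3 had a weak peak of score 15 in replicate 1 alone. Kcna1, Kcna2, Kcna5, Kcna6 and Kcna10 had none. Kcna1 and Kcna6 lie 61.9 kb apart on chromosome 6, and Kcna10, Kcna2 and Kcna3 lie in a row on chromosome 3 with gaps of 68.1 kb and 63.1 kb. Over these 5 clustered genes no shared promoter region was found.

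Kcnd1 on the X chromosome, one of the genes of the fast A-type current, scored 73 and 74, and Kcnd2 and Kcnd3 had no promoter peak. Of the Kcnq genes, several of which carry the M-current that restrains repeated firing, Kcnq3 and Kcnq5 had no promoter peak. Kcnq1, known from heart and epithelia, was among the 5 weakest open members with 41 and 45. Within its body, the start of the antisense RNA Kcnq1ot1 scored 141 and 128 (chr7:143296556-143296705), well above the start of Kcnq1 in both replicates.

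Among the channels opened by internal ions, 3 of the 4 Kcnn genes were open and Kcnma1 was not. Kcnn genes encode small-conductance calcium-activated channels, which produce the afterhyperpolarization that follows a spike. Kcnn3 scored 142 and 131 at 74 bp upstream of its 5′ end (chr3:89519996-89520185), inside the window printed above. Kcnn2 scored 126 and 115, but both of its shared promoter regions lay about its internal starts, the higher 289740 bp downstream of the 5′ end, and the 5′ end itself had none. Kcnn1 scored 89 and 87 and had 6 shared promoter regions, and Kcnn4, the intermediate-conductance member known from blood and epithelia, had no promoter peak. Kcnma1, the large-conductance BK channel, had no promoter peak at any of its 14 annotated starts. In replicate 2 it still had a promoter hotspot of 456 bp, whose peak of score 41 lay just outside the window, at -1172 bp from an internal start (upstream).

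Kcnt1, a sodium-activated channel, scored 89 and 79 and held 6 shared promoter regions, and its hotspot spanned 3778 bp in replicate 1 and 1607 bp in replicate 2. Kcnt2 had no promoter peak. Kcnu1, the pH-sensitive relative of Kcnma1 known from sperm, scored 72 and 70 at an internal start 62048 bp downstream of its 5′ end, and no shared region lay at the 5′ end.

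The inward rectifiers pass current more easily into the cell than out of it, and several are opened by G proteins. Of these G-protein-gated genes, Kcnj6 scored 107 and 113 at 30 bp upstream of its 5′ end, and Kcnj9 scored 104 and 78 at 42 bp upstream. Kcnj3 and Kcnj5, also of this group, had no promoter peak. Kcnj4 (86 and 97), Kcnj12 (64 and 69) and Kcnj14 (59 and 71), of the strong rectifiers, were open, while Kcnj2 was not. Kcnj11, the pore of the ATP-sensitive channel, scored 51 and 76, and its relative Kcnj8 had no promoter peak. Kcnj15 had a peak of score 24 in replicate 1 alone, and Kcnj1, Kcnj10, Kcnj13 and Kcnj16 had none. Kcnj9 and Kcnj10 lie 11.9 kb apart on chromosome 1 and differed in state.

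The tandem-pore-domain genes encode leak channels that hold the resting potential. Kcnk3, an acid-sensitive member, was the strongest with 120 and 104, and its hotspot spanned 2288 bp and 2464 bp. Kcnk13 scored 88 and 81, and Kcnk18 (42 and 27) and Kcnk6 (23 and 36) were among the 5 weakest open members. Of the 5 members with a promoter peak in 1 replicate only, 3 were leak channel genes: Kcnk5 scored 12 and Kcnk7 37 in replicate 1, and Kcnk15 37 in replicate 2. Kcnk12 scored 19 and 23 at different places. No promoter peak was found at Kcnk1, Kcnk2, Kcnk4, Kcnk9, Kcnk10 or Kcnk16. Kcnk9, the closest relative of Kcnk3, had 10 distal regions, and the highest of them, 3180 bp from its start, scored 143 and 121.

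All 3 Kcnab genes, which encode cytoplasmic beta subunits of the Kcna channels, were open, although only 2 of 8 Kcna genes were. Kcnab2 had the highest promoter of the family with 147 and 140, at chr4:152477536-152477685, and a start of Nphp4 lies within 1 kb of it. Kcnab3 scored 137 and 125. At Kcnab1 the 5′ end itself scored only 57 and 33, and a start 187806 bp downstream scored 104 and 100.

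Kcnmb4, the beta subunit of BK channels that is enriched in neurons, scored 135 and 132, while Kcnmb1, Kcnmb2 and Kcnmb3 and the BK alpha gene Kcnma1 had no promoter peak. Of the calcium-binding Kcnip subunits that join Kcnd channels, Kcnip3 scored 132 and 111 and Kcnip2 88 and 86, the latter only at an internal start 3720 bp downstream of its 5′ end. Kcnip1 and Kcnip4 had none. In Kcnip3 the internal start 39404 bp downstream scored 115 and 95, close to the 132 and 111 near the 5′ end. Of the single-pass Kcne subunits, Kcne1l on the X chromosome was open with 37 and 22, the lowest percentile of the family, and Kcne1, Kcne2, Kcne3 and Kcne4 had none.

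Internal starts were open in several members. Kcnh6, Kcnip2, Kcnn2 and Kcnu1 were open at internal starts and not at the 5′ end, and Kcnab1 was stronger inside the gene than at its 5′ end. Shared promoter regions numbered 2 or more in 28 of the 38 open members, with a mean of 2.71 per member, against 2.83 over all open genes. The best region lay within 500 bp of one of the gene's own starts in 33 of the 38.

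The CpG content of the 1 kb around the 5′ end was then compared, because many promoters with a high ratio of observed to expected CpG are open in most cell types. The median ratio was 0.604 in open members and 0.452 in the others, against 0.552 over all genes. Of the 36 members with a ratio of at least 0.6, 19 were open (52.8%, Wilson interval 37.0% to 68.0%), against 87.6% of 10061 such genes. Of the 57 members below 0.6, 19 were open (33.3%), against 35.6% of all such genes. The members' share lay below that of all genes among CpG-rich promoters and near it among the others.

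The 17 CpG-rich members without a shared promoter region were Kcna3, Kcnb2, Kcnd2, Kcnd3, Kcng3, Kcnh7, Kcnh8, Kcnj10, Kcnk1, Kcnk2, Kcnk5, Kcnk9, Kcnk12, Kcnk15, Kcnq3, Kcnq5 and Kcns2. Kcng3 had the highest ratio of these, 0.957, and Kcnk9 followed with 0.911. Of the open members, Kcnmb4 had the highest ratio, 1.04, and Kcnj14 the lowest, 0.139. By class, 2 of 8 CpG-rich leak channel genes and 9 of 19 CpG-rich voltage-gated genes were open, against 4 of 5 inward rectifiers and 3 of 3 auxiliary genes.

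**Figure D3:**
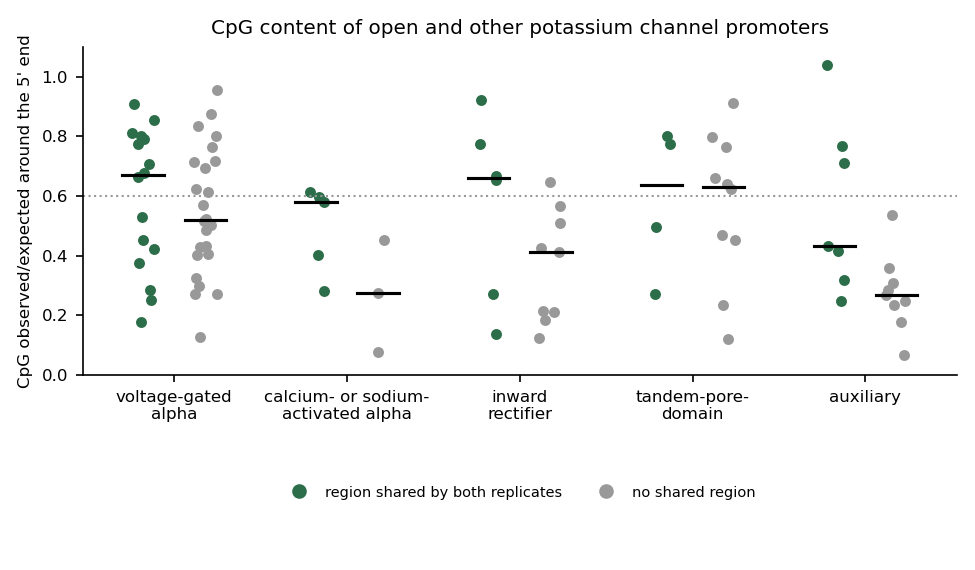
Ratio of observed to expected CpG in the 1 kb around the 5′ end (vertical axis) of each potassium channel gene by class, with open members in green, the others in grey, bars at the medians and a dotted line at 0.6. The 17 grey points above the line are 10 voltage-gated, 6 leak channel and 1 inward rectifier gene.

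Gene length was also set beside the state. Members had a median length of 32.0 kb, against 17.4 kb over all genes. Of the 18 members of at least 200 kb, 5 were open (27.8%), against 57.2% of all genes of that length, and of the 46 under 30 kb, 20 were open (43.5%), against 53.3%. From 30 to 100 kb 12 of 24 members were open, against 73.9%, and from 100 to 200 kb 1 of 5, against 70.4%. The members' share was below that of all genes in each of the 4 length classes.

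Distal regions were those shared by both replicates whose centre lay more than 2.5 kb from any annotated start, and they were counted for a member when they lay in its body or within 50 kb of it. At least 1 was found for 76 of the 93 members, against 79.9% of all genes. Their number had a median of 4 per member and 4 over all genes, and their density a median of 2.42 and 3.30 per 100 kb. Open members had a median of 10.0 distal regions and the others 1.00, against 7.00 and 1.00 over all open and all other genes. In all, 674 distinct distal regions lay near members, of which 251 lay in a member's body (238 in introns and 13 in exons) and 156 of the 423 outside lay in another protein-coding gene. The member's own start was the nearest for 249 of the 674.

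Kcnn3 had the most distal regions, 41, of which 27 lay in its body, and its own start was the nearest for 32 of them. Kcnab2 had 29 (12 in its body), but all 17 outside it lay in other protein-coding genes. Kcnh1 and Kcnq1 had 28 each with 23 in the body, and Kcnma1 23 with 21. The regions in Kcnma1, which had no promoter peak, spread over 725061 bp and gave a density of 2.79 per 100 kb, against 16.1 for Kcnn3 and 15.5 for Kcnab2.

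The highest density, 24.5 per 100 kb, belonged to Kcnk15, a short gene with 1 of its 26 regions in its body and 16 in other protein-coding genes, most of them in Rims4. Kcnab1 and Kcnj12 had 19 each, with 14 and 12 in the body. Kcnk18 was among the densest with 14.4 per 100 kb, although 15 of its 17 regions lay outside its body. No distal region was found for 17 members, among them Kcna1, Kcna2, Kcnb2, Kcnc2, Kcnh5, Kcnh7, Kcnj2, Kcnj3 and Kcnk2. Kcnn2, with an open internal promoter, also had none.

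**Figure D4:**
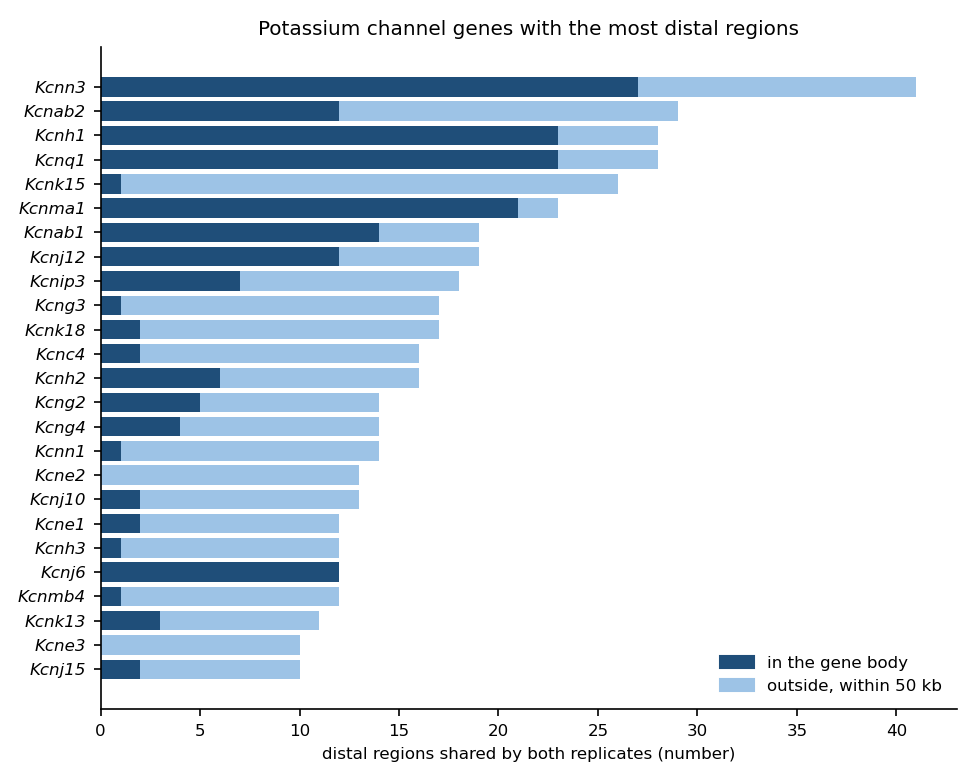
Number of distal regions shared by both replicates (horizontal axis) for the 25 potassium channel genes with the most among those reported here, split into those in the gene body (dark) and those outside it within 50 kb (light). Kcnn3 leads with 41, and the bars of Kcnk15 and Kcng3 are almost all outside the gene.

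The median of the lower percentile of the members' distal regions among all peaks was 51.0, against 49.2 over all 76129 distal regions. The central 150 bp of each distal region were searched for motifs, on either strand. AP-1 sites (TGANTCA) lay in 14.5% of the members' regions (interval 12.1% to 17.4%), against 17.5% of all, and SP/KLF boxes in 5.34% (3.88% to 7.31%), against 4.92%. CTCF matches with up to 2 mismatches lay in 4.75% (3.38% to 6.63%), against 2.72%, and NFI matches in 2.97% (1.93% to 4.54%), against 3.33%. The androgen response element (ARE), the palindrome bound by the receptor that methyltrienolone activates, was found with up to 2 mismatches in 28 regions, 4.15% (2.89% to 5.94%), against 3.51% of all. Apart from AP-1 and CTCF, these intervals include the share over all distal regions, and a match is a sequence only and does not show that the factor was bound.

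The RE1 element of REST, a repressor of neuronal genes in other cells, was matched with up to 2 mismatches in 2 regions near members (0.297%, interval 0.0814% to 1.08%), against 15 of all 76129 (0.0197%). The first lay outside Kcnh2, 6076 bp from its start, with scores of 86 and 97, and the other in an intron of Kcnj6 with scores of 29 and 28. The gene Rest itself had an open promoter with 110 and 93. The strongest ARE-bearing region near a member lay upstream of Kcns2, whose own promoter had no peak, and scored 138 and 133, and a region in an intron of Kcnn3 that held a CTCF match scored 145 and 133. These 4 regions are printed as the 150 bases around their centres on the plus strand of mm10, with the match named in capitals: chr5:24357606-24357755 near Kcnh2, chr16:94972566-94972715 in Kcnj6, chr15:34820616-34820765 near Kcns2 and chr3:89534866-89535015 in Kcnn3.
RE1 near Kcnh2: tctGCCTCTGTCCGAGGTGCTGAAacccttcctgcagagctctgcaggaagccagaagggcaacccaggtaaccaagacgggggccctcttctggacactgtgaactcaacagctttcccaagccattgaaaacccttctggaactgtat
RE1 in Kcnj6: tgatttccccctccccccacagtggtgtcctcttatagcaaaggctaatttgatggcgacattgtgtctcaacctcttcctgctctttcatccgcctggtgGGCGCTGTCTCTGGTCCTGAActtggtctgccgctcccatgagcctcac
ARE near Kcns2: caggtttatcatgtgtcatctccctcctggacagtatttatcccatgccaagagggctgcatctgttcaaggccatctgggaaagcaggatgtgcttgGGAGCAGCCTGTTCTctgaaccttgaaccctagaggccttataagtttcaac
CTCF in Kcnn3: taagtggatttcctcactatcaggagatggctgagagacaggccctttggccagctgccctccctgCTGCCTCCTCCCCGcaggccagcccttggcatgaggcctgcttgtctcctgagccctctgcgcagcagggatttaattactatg
Both RE1 matches lie on the minus strand and so stand above as their reverse complement. With 1 mismatch, AREs lay near several members, among them Kcnh1, Kcnn3 and Kcnh6 and both Kcne1 and Kcne2, and these regions scored between 34 and 93 in replicate 1. The strongest of these lay near Kcnn3 at chr3:89513263-89513277 (93 and 81), with the matching bases in capitals.
ARE near Kcnn3: AGAACAgtaaGTTCT
An RFX palindrome without a mismatch lay near Kcnab2 at chr4:152350323-152350336, in a region that scored 92 and 77.

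By the lower of both percentiles, the highest distal region near members lay by Kcnn1 at chr8:70865676-70865865 and scored 142 and 138. Its near edge lay within 2.5 kb of the 5′ end of Kcnn1 (chr8:70863258), and only its centre lay beyond that limit. After the Kcnn1 region and those in Kcnn3 and near Kcns2 came an intron of Kcnab2, chr4:152406056-152406205, with 145 and 128. Next was a site near Kcnk15 inside Rims4, chr2:163903536-163903705, with 137 and 127. Each of these regions scored higher in replicate 1 than in replicate 2, as did the promoters of 28 of the 38 open members.

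The replicates were compared by percentile rather than by score, since the score scale may differ between lists. The percentile of open members differed by a median of 3.73 between replicates, against 5.88 over all open genes. In replicate 1 17 members ranked higher (44.7%) and in replicate 2 21, near the split of all open genes (49.1% higher in replicate 1). Kcnip3 and Kcnh6 ranked higher in replicate 1 by 13 and 9.78 percentiles, and Kcnmb4, Kcnh2 and Kcnj6 ranked higher in replicate 2 by 13.3, 12.9 and 11.1. Of the distal peaks near members, 31.9% of the 1006 in replicate 1 and 26.4% of the 931 in replicate 2 had no partner in the other, against 35.1% and 24.7% of all distal peaks.

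The largest such difference among members was at Kcnj6. Counts here were not scaled to gene length, and Kcnj6 spans 249066 bp, against a median of 17.4 kb over all genes. Kcnj6 had 35 distal peaks in replicate 2 alone and 5 in replicate 1 alone. The difference of 30 was reached by 11 of 21911 genes, Kcnj6 included, while the 5th to 95th percentile of all genes ran from -7 to 3. Of these peaks 31 lay in 1 stretch of 18.3 kb in an intron, chr16:94882516-94900805, 96.9 to 115 kb downstream of the 5′ end, and this stretch was chosen after its values were seen. Their scores ran from 4 to 41 with a median of 12, against a median of 51.0 over all peaks of replicate 2, and 29 of them scored 20 or less, as did 4.69% of that list. Hotspots of replicate 2 covered 12458 bp of the stretch and those of replicate 1 923 bp. Only 3 shared regions lay in it, and whether the difference is technical was not tested. Kcnh1 was the opposite case, with 26 distal peaks in replicate 1 alone and 10 in replicate 2 alone, and Kcnc4 had 12 and 0.

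**Figure D5:**
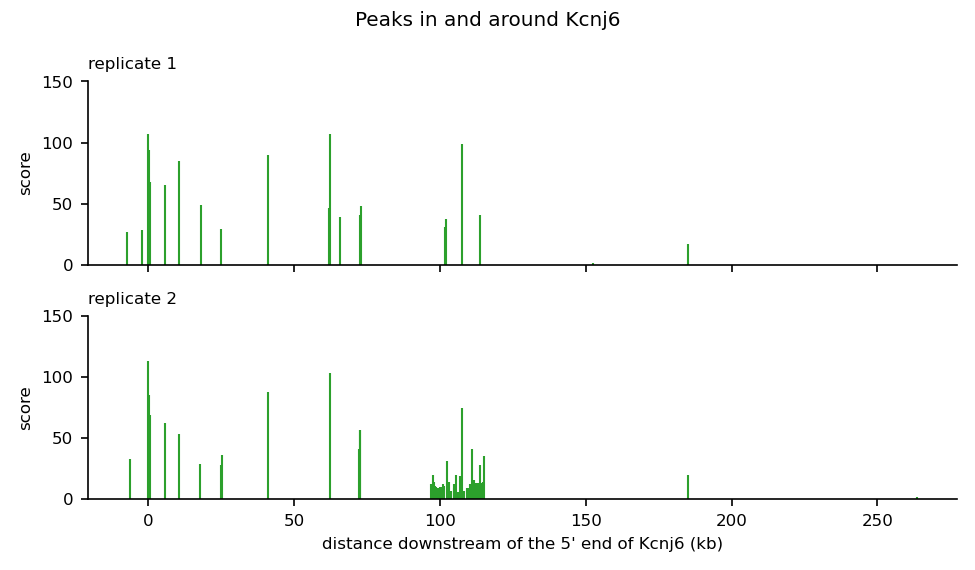
Score of each peak (vertical axis, no unit) against its distance downstream of the 5′ end of Kcnj6 (horizontal axis, kb) in replicate 1 (top) and replicate 2 (bottom). Of the distal peaks, 35 of 47 in replicate 2 and 5 of 17 in replicate 1 have no partner in the other, and the low peaks between 96.9 and 115 kb are close together in replicate 2 (34 peaks) and sparse in replicate 1 (4 peaks).

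A further 41 genes act in potassium transport or regulate its channels. Of these 31 were open (75.6%, Wilson interval 60.7% to 86.2%), against 59.5% of all genes, with a median lower percentile of 31.7. Among partners of the alpha subunits, Vapa scored 148 and 147 and Vapb 131 and 123 (both anchor Kcnb channels), Cntnap1 148 and 140, and the scaffold Dlg2 147 and 147. The calmodulin genes Calm2 and Calm3, whose product is the calcium sensor of Kcnn and Kcnq channels, scored 138 and 129 and 147 and 140. Hcn4, a hyperpolarization-activated channel, scored 148 and 136, and the sodium pump gene Atp1b3 scored 142 and 138. No promoter peak was found at Abcc9, Dpp6, Dpp10, Lrrc55, Lrrc38, Akap5 or Nedd4l, Lrrc52 had one in replicate 1 alone, and Abcc8, the sulfonylurea receptor that joins Kcnj11, had peaks of 40 and 33 at different places.

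The voltage-gated sodium and calcium channel genes were read in the same way as the families most like the members. Open were 9 of 14 sodium channel genes (64.3%, 38.8% to 83.7%) and 17 of 26 calcium channel genes (65.4%, 46.2% to 80.6%). Both shares were near the 59.5% of all protein-coding genes, which lies within both intervals. They were above the 40.9% of the potassium channel genes, and both intervals overlap theirs, 31.4% to 51.0%. The difference was not tested. Their median lower percentiles were 21.6 and 16.6, against 14.3 for the potassium channels, all below the 44.6 of all open genes.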

How the data were processed

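DNase-seq peaks and hotspots of 2 biological replicates of MN1 cells, all treated with methyltrienolone, were analysed. Coordinates are of mm10, per the labels. Neither an aligner nor a peak caller is named by the labels or headers (not given in the sources used here). The authors deposited, per replicate and not pooled, peaks of 150 bp with a score from 1 to 150 of unstated meaning, and hotspots with the −log10 of a false discovery rate, which was not used beyond their position and width. Entries off the 21 main chromosomes were dropped and repeats were counted once. All ends lay within the chromosome lengths of GRCm38. Lists of called peaks depend on depth and on the caller's threshold, so the absence of a peak does not show closed chromatin.

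Gene models were those of GENCODE M21, with genes that share a symbol counted once. Shared regions were overlapping peaks (at least 1 bp) of both replicates, merged: 127807 in all, 76129 of them distal. A promoter region near 2 genes counts for both. Shares carry 95% Wilson intervals. No test was made, because 1 group of 2 libraries allows none between conditions and members were described against all genes. Motifs allowed 2 mismatches for RE1, CTCF, RFX and ARE, 1 for NFI and none otherwise. The members, lists and motifs were chosen with earlier results of these data known. Values are given for the 2 highest open members of each subfamily, the 10 highest and 5 lowest of all, members with a peak in 1 replicate only, those with the most or densest distal regions or the widest hotspots, and those that differed most between replicates, with further members for completeness. Alternatives changed the window, the starts used, the overlap, the peaks kept, the use of hotspots and the replicates. The counting of promoters was tested on simulated data. The tools were pandas 2.3.3, scipy 1.17.1 and numpy 2.4.6 under Python 3.11.15. Some genes that were counted are not reported here by name and are left out of the plots that name genes or subfamilies.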

Additional observations from a re-analysis of the deposited data

How the results depend on the processing

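The number of open members, of 93, ran from 32 with the stronger 50% of peaks to 46 with a 2.5 kb window. It was 40 and 43 with replicate 2 or replicate 1 alone, against 38. The share over all genes also moved, to 55.5% with the stronger peaks and 63.4% with the 2.5 kb window. With replicate 2 or replicate 1 alone it was 60.8% and 61.9%, against 59.5%. The wider window added Kcne2, Kcne4, Kcng3, Kcnk4, Kcnk7, Kcnk15, Kcnma1 and Kcnn4, and stronger peaks removed Kcne1l, Kcnj11, Kcnk6, Kcnk18, Kcnq1 and Kcns1. Hotspots that overlap between replicates gave 40, with Kcng3 and Kcnma1 added, against 59.9% of all genes. The 674 distal regions became 437 with flanks of 20 kb, 251 with gene bodies only and 337 with the stronger 50% of peaks, where fewer places or peaks are counted, and 931 to 1006 with 1 replicate. Without the stretch in Kcnj6, which was chosen after seeing the data, 671 remained. The median lower percentile of 14.3 became 16.6 with the 2.5 kb window, 16.1 to 18.4 with 1 replicate (all open genes 48.9 to 50.9) and 79.2 when ranked among all peaks (all open genes 94.5). It stayed below that of all open genes under each of these settings. The open share of CpG-rich members, with alternatives chosen after seeing the data, ran from 47.8% to 61.1% (58.3% to 61.1% with 1 replicate). By class, open leak channel genes numbered 2 with the stronger peaks and 7 with the 2.5 kb window or replicate 1 alone, against 4, and calcium- or sodium-activated genes numbered 3 at 5′ ends alone, against 5. No paired analysis was possible because both libraries belong to 1 group. The unknown depth limits what the absence of a peak shows.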

Other observations

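Of neighbouring members, Kcnj9 and Kcnj10 (11.9 kb apart) differed in state, while the pairs that follow were alike. Kcnip1 and Kcnmb1 overlap on chromosome 11 and neither had a promoter peak, as was so for Kcnj1 and Kcnj5 (28.1 kb apart), Kcnj16 and Kcnj2 (38.2 kb) and Kcne1 and Kcne2 (47.9 kb). Kcne1 and Kcne2 still had 12 and 13 distal regions in their bodies or within 50 kb, some of them near both. Kcnip1 had 11 distal peaks in replicate 2 alone and 1 in replicate 1 alone, with scores from 22 to 48 in replicate 2. In windows of 20 kb along the genome, 7 of 61001 windows with a peak held at least as many peaks of replicate 2 only as the fullest window of the stretch in Kcnj6, which held 28, and 0 held as many of replicate 1 only.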
